A study of Mus musculus with 8 samples.

Results

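Endothelium-rich spots were examined in sections of embryonic mouse diaphragm at E18.5, measured by 10x Visium on formaldehyde-fixed, paraffin-embedded tissue. Spots were chosen by the summed UMIs (distinct captured molecules) of *Cdh5*, *Pecam1*, *Esam*, *Cd93* and *Kdr*, divided by all UMIs of the spot. The top 10% of each section were taken among spots with 1000 or more UMIs, which gave 598 of 5985 spots in the 2 controls, 346 in control 1 and 252 in control 2. The same rule gave 133 spots in the CaV1.1 KO and 216 in the β-cat cKO, of 12703 spots in the 8 sections of the whole series. Spots outside the top 10% are called other spots.

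The series compares control diaphragms with diaphragms whose muscle cannot contract or lacks β-catenin. Control embryos carried at least 1 functional allele of CaV1.1, the calcium channel that triggers contraction of skeletal muscle, and at least 1 of β-catenin, and their exact alleles are not named in the labels. CaV1.1 -/- (dysgenic) embryos lacked the channel in the whole animal. In bCat cKO embryos the floxed β-catenin gene was deleted by HSA-Cre, which is active in skeletal muscle, so that the deletion was aimed at muscle fibres. Per the paper's methods, parents of the cKO were also heterozygous for CaV1.1. Among the crosses given for the KO, 1 carried HSA-Cre and floxed β-catenin. The remaining alleles of the mutant embryos are not named in the labels. Each mutant group at E18.5 was 1 section, and the 2 controls were separate samples. Sex and litter are not given in the sources used here. The E14.5 controls, 3 sections, entered the fits to share the estimate of spread and to compare the stages.

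Endothelial cells line blood and lymphatic vessels. VE-cadherin, encoded by *Cdh5*, and PECAM-1 hold their junctions together, and the receptor encoded by *Kdr* receives VEGF, the main growth signal of vessels. Arteries, veins and capillaries differ in the genes they use: arterial endothelium depends on Notch signalling and carries the connexins of *Gja4* and *Gja5*, while capillaries of muscle take up fatty acids. Pericytes wrap capillaries and smooth muscle cells wrap larger vessels.

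A spot is 55 µm wide and the sections were 5 µm thick, so that a spot holds several cells of different types or parts of them. More endothelial cells and more RNA per endothelial cell cannot be told apart. Over all spots in the files, the sections held 82859104 UMIs in control 1, 69837233 in control 2, 23949267 in the KO and 61092194 in the cKO. Endothelium-rich spots had a median of 20224.5 UMIs against 23240 in other spots of control 1, and 26970.5 against 27193 in control 2. The gap was wider in the KO, with 12662 against 17611, and in the cKO, with 16792.5 against 28106. In the cKO, 49 of the 216 chosen spots lay among the 10% of spots with the fewest UMIs and 5 among the 10% with the most. The part of depth in the mutant values was not tested.

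The targeted genes were read first. *Cacna1s*, which encodes CaV1.1, stood in other spots at 84.9 and 84.4 TMM-scaled CPM in the controls, at 24.2 in the KO and at 56.5 in the cKO. TMM-scaled CPM is the count of the summed spots relative to their total, on the usual CPM scale, after TMM factors that make the bulk of genes comparable between sums. *Ctnnb1*, which encodes β-catenin, stood in endothelium-rich spots at 121 and 124 TMM-scaled CPM in the controls and at 119 in the cKO. Where the probes lie relative to the mutated or deleted exons was not examined, so that neither gene tests the label.

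The 5 genes that chose the spots are given as a description. The last spot chosen in control 1 had 11.14 UMIs of the 5 genes per 10000 UMIs and the first left out had 11.13, and in control 2 both stood at 9.95. In the KO the values at the border were 10.49 and 10.41, and in the cKO 8.52 and 8.51. No gap therefore separated chosen from unchosen spots. The median spot chosen carried 29 UMIs of the 5 genes in control 1 against 12 in other spots, and 32 against 14 in control 2. In the KO the medians were 18 and 7, and in the cKO 19.5 and 10. Fewer than 5 UMIs of the 5 genes were held by 3 chosen spots in control 1, 0 in control 2 and 4 in the KO. In the cKO 23 of the 216 did so, and the lowest held 1. All 5 genes were detected in 287 of the 346 spots of control 1 and in 227 of the 252 of control 2, but in 83 of 133 in the KO and 136 of 216 in the cKO.

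*Cdh5* stood at 654 TMM-scaled CPM in endothelium-rich and 301 in other spots of control 1, and at 494 and 261 in control 2. It stood at 474 and 153 in the KO and at 441 and 161 in the cKO. The order of mutants and controls in the chosen spots depends on the scaling, since the unscaled CPM were 526 and 432 in the controls, 534 in the KO and 433 in the cKO. When the spots were chosen without *Cdh5*, its unscaled CPM was still 2.12 times as high in the chosen spots of control 1, 1.95 times in control 2, 2.74 times in the KO and 2.52 times in the cKO. *Pecam1*, chosen by the other 4 genes in the same way, gave ratios of 2.33, 2.29, 4.28 and 2.97, and *Kdr* gave 1.91, 1.78, 1.89 and 2.08. Each rule gene therefore followed the other 4 in all 4 sections. The chosen spots held 20.2% of the 5 genes' UMIs in control 1 and 20.6% in control 2, so that most of the endothelial signal lay outside them.

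Endothelium-rich neighbours were more frequent around endothelium-rich spots than around other spots. Around an endothelium-rich spot, 23.7% of adjacent spots were endothelium-rich in control 1, 28.2% in control 2, 30.5% in the KO and 39.4% in the cKO. Around other spots these shares were 8.51%, 8.12%, 7.75% and 6.66%. Joined spots formed patches, and the largest held 24 spots in control 1, 23 in control 2, 17 in the KO and 45 in the cKO. Alone, with no chosen spot beside them, stood 106, 80, 40 and 37 spots in the same order.

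**Figure D1:**
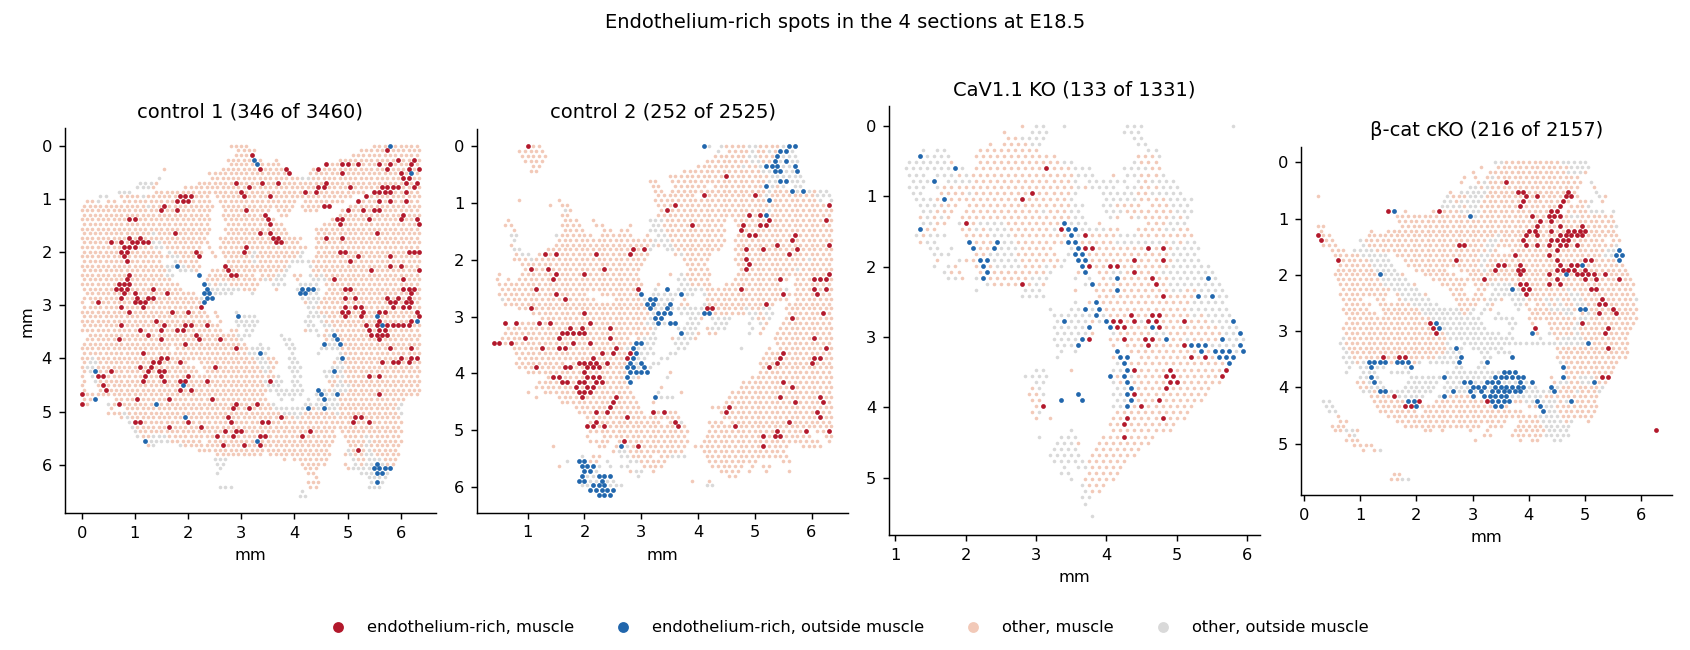
Position of each spot with 1000 or more UMIs in the 4 sections at E18.5, in mm on the capture area, with the number of endothelium-rich spots of all spots above each map. Dark red marks endothelium-rich spots in muscle, blue those outside muscle, and pale colours the other spots. Small groups lie along the muscle of control 1, while blue patches lie at the edges and the centre of control 2.

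Most of the chosen spots lay in muscle in the controls. Muscle spots are those above Otsu's threshold for the mean of 9 muscle genes. They made up 85.5% of the endothelium-rich spots in control 1 (95% Clopper-Pearson interval 81.4% to 89.1%, which covers counting error only) and 65.9% in control 2 (59.7% to 71.7%). In the KO the share was 42.9% (34.3% to 51.7%) and in the cKO 56.5% (49.6% to 63.2%). Other spots lay in muscle in 89.8%, 89.4%, 63.1% and 75.0%. The share in muscle was thus lower among chosen spots in each section, by far less in control 1 than in control 2. For the top 20% of spots the gap in control 1 was gone, with 89.45% of chosen against 89.34% of other spots in muscle. UMIs of the spot divide the score, and muscle spots rich in muscle transcripts have a lower score by construction, so that no test was made.

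Genes outside the rule were compared between endothelium-rich and other spots within the same section. UMIs were summed per section and kind of spot, and edgeR's quasi-likelihood test was fitted with the section as a block and Benjamini-Hochberg adjustment over 13735 genes. At E18.5, 892 genes were higher in endothelium-rich spots, 6.49% of those tested, and 1570 were lower, 11.4%. All 892 were higher in both controls, and 1519 of the 1570 were lower in both. Over all genes tested, 75.5% had the same direction in both controls. The calls were made from these same sections, so that the shared direction is no check on them. Without scaling factors the split turned, with 2709 higher and 219 lower, because this scaling put the median gene at 0.19 on the log2 scale in place of -0.06. The counts also rest on both controls together. Without control 1, 7 genes were called higher and 3 lower, and without control 2, 53 and 40. For many genes below the levels are therefore given for each section, and for the others only the fitted log2 fold change. Calls are those of the full fit.

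Of the 26 genes of the endothelial core list, which holds receptors, junction proteins and surface proteins of endothelium, 24 were higher and none lower. The median of the list was a log2 fold change of 0.93, against -0.06 over all genes tested. All 26 had a higher level in endothelium-rich spots of both controls, and also of the KO and the cKO, where the medians were 1.44 and 1.23. Under every alternative the median stayed above 0.79, but 8 of the 26 passed when spots were chosen within UMI deciles, 5 without the section block and 0 without control 1.

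*Vwf* encodes von Willebrand factor, which endothelium stores and releases for clotting. It stood at 126 TMM-scaled CPM in endothelium-rich and 27.5 in other spots of control 1, at 156 and 21.6 in control 2, at 191 and 17.5 in the KO, and at 174 and 13.9 in the cKO. The chosen spots were higher in each section without overlap, with a log2 fold change of 2.52 ± 0.30 (SE, adjusted p = 0.00101) in the controls. The log2 ratio was 3.44 in the KO (95% counting interval 3.24 to 3.65) and 3.65 in the cKO (3.5 to 3.80), with no replicate of either.

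*Nos3*, the endothelial nitric oxide synthase, stood at 37.8 and 16.8 TMM-scaled CPM in control 1 and at 55.2 and 17.9 in control 2, a log2 fold change of 1.40 ± 0.17 (adjusted p = 0.00103). *Clec14a*, a surface glycoprotein of endothelium, stood at 130 and 55.1, and at 123 and 55.2, a log2 fold change of 1.2 ± 0.13 (adjusted p = 0.000853). *Flt1*, a VEGF receptor, stood at 88.6 and 38.0, and at 99.1 and 50.9, a log2 fold change of 1.09 ± 0.12 (adjusted p = 0.000884). For all of these the lowest endothelium-rich value lay above the highest of the other spots in both controls. *Cd34* and *Calcrl*, the receptor subunit for adrenomedullin, were the core genes that missed the threshold, with log2 fold changes of 0.34 ± 0.13 (adjusted p = 0.106) and 0.28 ± 0.11 (adjusted p = 0.105).

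Of the 17 endothelial transcription factors, 15 were higher and 1 lower, with a median log2 fold change of 0.81. *Sox17*, a SOX factor of arterial endothelium, stood at 70.4 TMM-scaled CPM in endothelium-rich and 25.5 in other spots of control 1, and at 63.1 and 28.6 in control 2, a log2 fold change of 1.30 ± 0.15 (adjusted p = 0.000853). *Epas1*, which encodes the hypoxia-inducible factor HIF-2α, stood at 203 and 77.4, and at 156 and 74.9, with 1.23 ± 0.15 (adjusted p = 0.00101). *Erg*, an ETS factor of endothelial identity, rose by 0.81 ± 0.13 (adjusted p = 0.00373). *Mef2c*, which skeletal muscle also uses, went the other way, from 660 in other to 481 in endothelium-rich spots of control 1 and from 518 to 346 in control 2, a log2 fold change of -0.52 ± 0.13 (adjusted p = 0.0239).

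**Figure D2:**
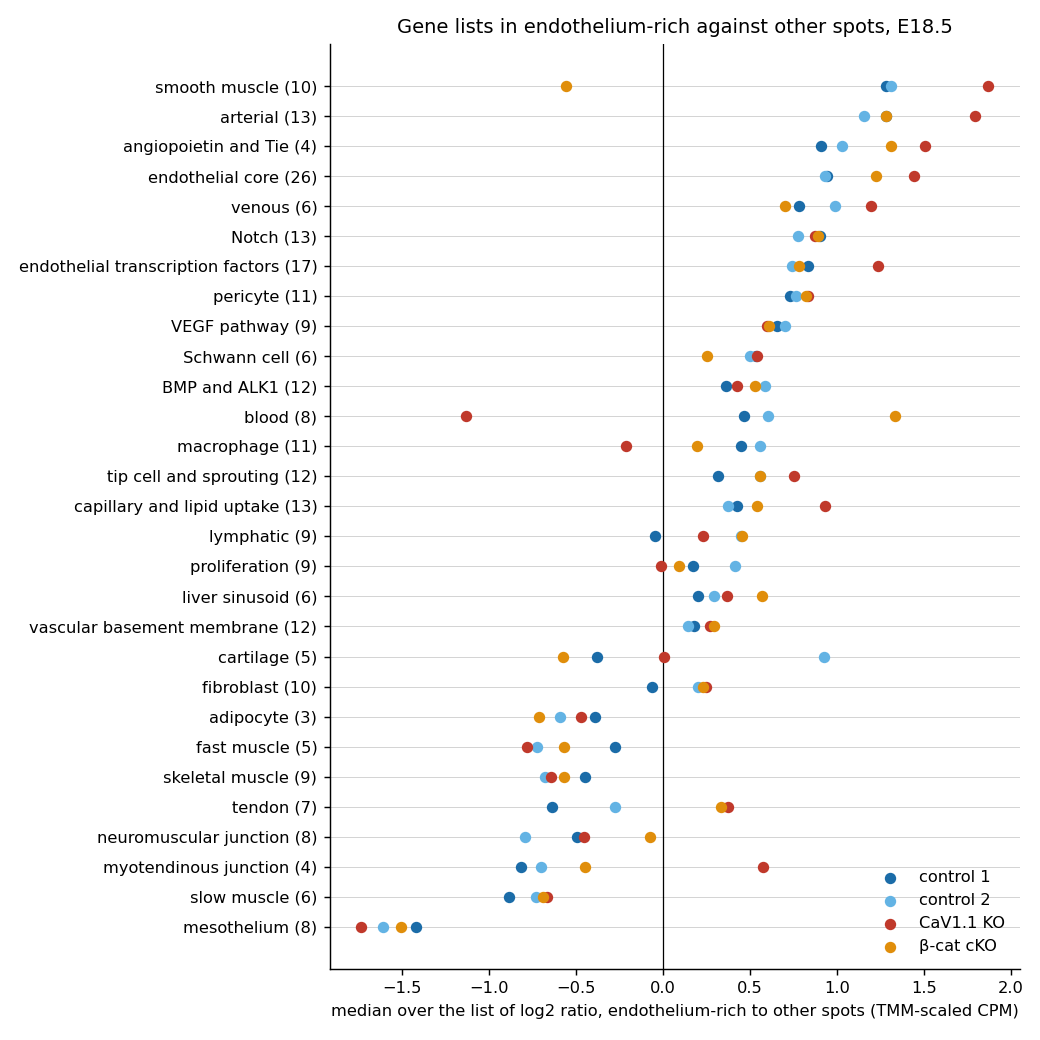
Median over each gene list of the log2 ratio of TMM-scaled CPM in endothelium-rich to other spots, with the number of genes tested in brackets and 1 point per section at E18.5. The hepatocyte list is left out because control 2 held next to none of its RNA. Arterial and endothelial core lists lie to the right of 0 in all 4 sections, and the smooth muscle list lies at 1.28, 1.31 and 1.87 in the controls and the KO but at -0.56 in the cKO.

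Promoter windows of the core genes with the largest fold changes, and of *Gja5*, are shown because these genes moved together and ETS factors such as those of *Erg* and *Fli1* bind the core motif GGAA. They are the 250 bases before the start that the promoter table made from RefSeq uses for each gene, on GRCm38.p6, the build of the count files. For *Flt1* the window lies inside the full RefSeq span of the gene, chr5:147561604-147726438, so that it is not upstream of the outermost annotated start. CCGGAA and AGGAAG were searched on both strands, where the motifs can overlap, and matches are in capitals. The genes are the 3 with the largest core fold changes that have an entry in the promoter table, Clec14a at chr12:58269259-58269508 (minus strand), She at chr3:89831120-89831369 (plus strand) and Flt1 at chr5:147726012-147726261 (minus strand), with Gja5 at chr3:97032152-97032401 (plus strand).

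Clec14a: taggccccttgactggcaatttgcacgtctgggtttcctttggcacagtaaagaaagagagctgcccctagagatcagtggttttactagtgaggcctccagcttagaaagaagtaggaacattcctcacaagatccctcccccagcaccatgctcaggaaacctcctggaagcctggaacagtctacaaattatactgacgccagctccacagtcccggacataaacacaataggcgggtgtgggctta

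She: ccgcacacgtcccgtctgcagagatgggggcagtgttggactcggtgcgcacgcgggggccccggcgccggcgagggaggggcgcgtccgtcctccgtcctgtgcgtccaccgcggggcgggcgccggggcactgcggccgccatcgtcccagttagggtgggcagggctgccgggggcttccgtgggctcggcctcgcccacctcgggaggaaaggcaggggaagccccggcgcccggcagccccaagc

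Flt1: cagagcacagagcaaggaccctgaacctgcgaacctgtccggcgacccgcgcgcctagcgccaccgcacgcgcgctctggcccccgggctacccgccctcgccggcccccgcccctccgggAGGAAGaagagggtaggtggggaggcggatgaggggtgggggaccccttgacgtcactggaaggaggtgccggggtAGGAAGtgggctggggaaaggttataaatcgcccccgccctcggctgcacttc

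Gja5: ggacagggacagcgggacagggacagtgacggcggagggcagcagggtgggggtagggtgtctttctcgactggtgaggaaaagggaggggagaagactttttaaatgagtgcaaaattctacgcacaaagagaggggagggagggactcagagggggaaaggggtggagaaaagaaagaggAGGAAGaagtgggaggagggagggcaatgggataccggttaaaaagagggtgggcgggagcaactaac

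*Flt1* held AGGAAG at 2 places and *Gja5* at 1, while *Clec14a* and *She* held neither motif in this window. Of the 17 core genes with an entry, 11 held AGGAAG (64.7%) and 1 held CCGGAA, against 29.5% and 12.03% of 32851 promoters of the same length. Of 12 arterial genes, 3 held AGGAAG. A match of letters is no binding site, and the shares are a description.

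Among genes that tell vessel types apart, the arterial list was the one in which each member passed. All 13 of its genes were higher in endothelium-rich spots, with a median log2 fold change of 1.195. *Gja5*, which encodes connexin 40 of arterial endothelium, stood at 162 TMM-scaled CPM in endothelium-rich and 25.7 in other spots of control 1, at 64.0 and 11.1 in control 2, at 74.1 and 6.94 in the KO and at 49.2 and 10.2 in the cKO. Control 1 thus held more than 2 times the level of control 2 in both kinds of spot, while the log2 ratios were 2.65 and 2.52. The log2 fold change was 2.60 ± 0.11 (adjusted p = 1.91e-06).

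*Gja4*, connexin 37, stood at 159 and 51.5 TMM-scaled CPM in control 1 and at 135 and 45.7 in control 2, a log2 fold change of 1.60 ± 0.16 (adjusted p = 0.0004). *Sema3g*, a secreted semaphorin of arterial endothelium, stood at 59.9 and 14.2, and at 34.3 and 10.3, with 1.91 ± 0.14 (adjusted p = 0.000102). *Bmx*, a kinase of arterial endothelium, was low, at 10.9 and 1.91, and at 13.8 and 1.31, with 2.95 ± 0.43 (adjusted p = 0.00271). All 13 genes were also higher in the chosen spots of the KO and of the cKO, with medians of 1.79 and 1.28.

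The venous list had 4 of 6 genes higher, with a median of 0.87. *Nr2f2*, the COUP-TFII factor of venous endothelium, stood at 35.4 and 19.0 TMM-scaled CPM in control 1 and at 50.3 and 23.2 in control 2, a log2 fold change of 1.01 ± 0.20 (adjusted p = 0.0100). *Aplnr*, the apelin receptor, rose by 0.91 ± 0.17 (adjusted p = 0.00889). Of 9 lymphatic genes, 2 were higher and 2 lower. Log2 fold changes in this list ran from -0.47 to 1.46, and its median ratio was -0.05 in control 1 and 0.45 in control 2. The higher were *Reln*, with 1.33 ± 0.20 (adjusted p = 0.00322), and *Nts*, with 1.46 ± 0.27 (adjusted p = 0.00772). *Prox1*, the factor that sets lymphatic identity, stood at 28 and 37.1 in control 1 and at 41.7 and 40.9 in control 2 (adjusted p = 0.299), and *Lyve1*, a hyaluronan receptor of lymphatic endothelium, had an adjusted p of 0.359.

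In the list of capillary and lipid uptake genes, 6 of 13 were higher and 2 lower, with a median of 0.39. *Fabp4*, which carries fatty acids inside endothelial cells, stood at 658 and 384 TMM-scaled CPM in control 1 and at 577 and 409 in control 2, a log2 fold change of 0.64 ± 0.18 (adjusted p = 0.0360). *Cd36*, the fatty acid transporter, stood at 469 and 409 in control 1 but at 401 and 453 in control 2, so that its groups overlapped and it was not called (0.01 ± 0.16, adjusted p = 0.976). *Lpl*, lipoprotein lipase, which muscle also makes, was lower, with -0.39 ± 0.12 (adjusted p = 0.0423), and so was *Rgcc*, with -0.31 ± 0.10 (adjusted p = 0.0490). Neither of these falls was called with RLE scaling or without scaling factors.

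**Figure D3:**
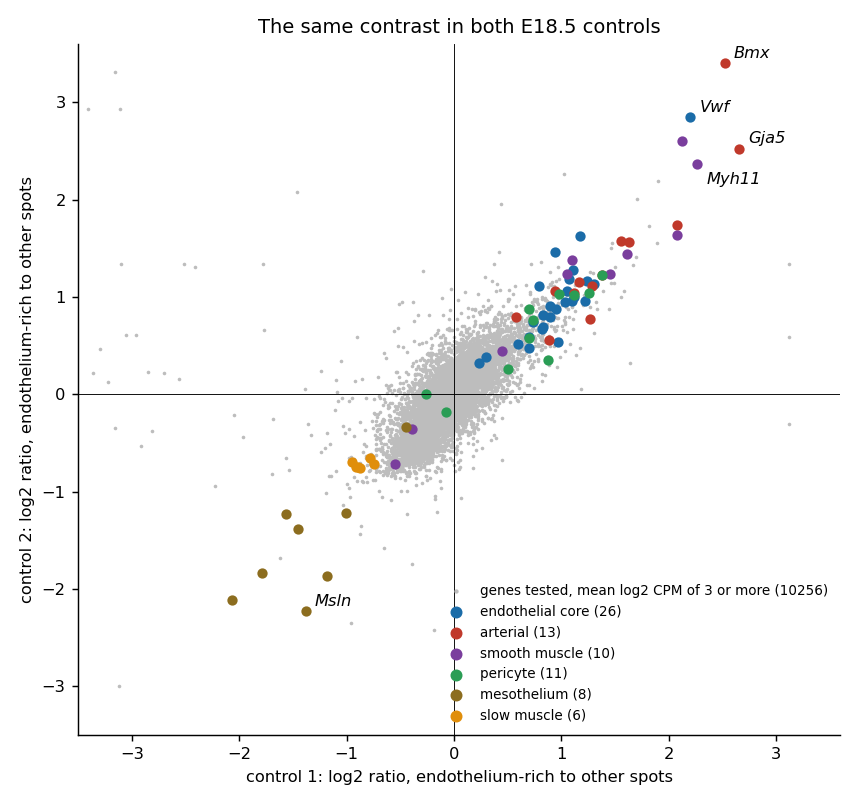
Log2 ratio of TMM-scaled CPM in endothelium-rich to other spots for each gene, control 1 on the horizontal and control 2 on the vertical axis, in grey for 10256 tested genes with a mean log2 CPM of 3 or more (3 of them lie beyond the axes) and in colour for all tested genes of 6 lists. Arterial genes lie in the upper right corner and mesothelial genes in the lower left, and *Bmx*, *Gja5*, *Vwf* and *Myh11* lie beyond 2 in both controls.

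Of 9 genes of the VEGF pathway 5 were higher and 1 lower. The receptors *Flt1*, given above, and *Nrp1*, with 0.86 ± 0.13 (adjusted p = 0.00330), and *Nrp2*, with 0.71 ± 0.10 (adjusted p = 0.00230), were higher. Among the ligands, *Vegfc* stood at 70.4 and 31.3 TMM-scaled CPM in control 1 and at 52.3 and 37.7 in control 2, a log2 fold change of 0.83 ± 0.18 (adjusted p = 0.0125), and *Pgf* rose by 1.02 ± 0.31 (adjusted p = 0.0436). *Vegfb* was lower, at 328 and 419 and at 283 and 387, with -0.40 ± 0.08 (adjusted p = 0.0120), and lost this call without scaling factors. *Vegfa* stood at 118 and 133, and at 104 and 137 (adjusted p = 0.121), and *Vegfd* and the receptor *Flt4* did not pass (adjusted p = 0.791 and 0.142).

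Both Tie receptors were higher, *Tek* (TIE2) with a log2 fold change of 0.98 ± 0.10 (adjusted p = 0.000529) and *Tie1* with 0.95 ± 0.22 (adjusted p = 0.0165). *Angpt2*, a ligand of TIE2 which endothelium makes when vessels are remodelled, stood at 32.9 and 11.4 TMM-scaled CPM in control 1, at 42.5 in the chosen spots of control 2 with a log2 ratio of 1.55, at 93.3 and 42.6 in the KO and at 28.6 and 10.8 in the cKO, and rose by 1.54 ± 0.17 (adjusted p = 0.000853). The KO thus held more than 2 times the level of each control in both kinds of spot. *Angpt1*, the TIE2 ligand made by perivascular cells, stood at 35.3 and 35.1 in control 1 and at 35.4 and 32.2 in control 2 (adjusted p = 0.739).

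Of 13 Notch genes 9 were higher. *Jag1*, a ligand, stood at 140 and 47.6 TMM-scaled CPM in control 1 and at 128 and 43.0 in control 2, a log2 fold change of 1.57 ± 0.11 (adjusted p = 8.36e-05). *Dll4*, the ligand of arterial and tip cells, rose by 0.99 ± 0.17 (adjusted p = 0.00536). The receptor *Notch3* of mural cells rose by 1.0 ± 0.08 (adjusted p = 0.000120), *Notch4* of endothelium by 0.84 ± 0.16 (adjusted p = 0.00938) and *Notch1* by 0.54 ± 0.10 (adjusted p = 0.00719). *Notch2* had a log2 fold change of -0.03 ± 0.09 (adjusted p = 0.871). Among the targets, *Hey1* rose by 1.02 ± 0.13 (adjusted p = 0.00155), *Heyl* by 0.56 ± 0.09 (adjusted p = 0.00347) and *Nrarp* by 0.87 ± 0.09 (adjusted p = 0.000634), whereas *Hes1* did not pass (adjusted p = 0.169).

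The BMP and ALK1 list had 5 of 12 genes higher, among them the receptor *Acvrl1* (ALK1), at 80.6 and 48.5 TMM-scaled CPM in control 1 and at 96.5 and 57.8 in control 2, with 0.74 ± 0.09 (adjusted p = 0.00127), and the target *Id1*, with 0.71 ± 0.13 (adjusted p = 0.00843). The ligands *Bmp2*, *Bmp4* and *Bmp6* did not pass (adjusted p = 0.430, 0.446 and 0.345). Of 12 vascular basement membrane genes 3 were higher, and the median of 0.12 lay near that of all genes. *Col18a1* rose by 0.72 ± 0.09 (adjusted p = 0.00164), and *Col4a1*, a chain of collagen IV, stood at 1748 and 1154 in control 1 and at 1733 and 1306 in control 2, with 0.50 ± 0.15 (adjusted p = 0.0406).

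Mural cell genes rose with the endothelium. Of 11 pericyte genes 8 were higher and none lower, with a median of 0.74. *Rgs5*, a regulator of G protein signals in pericytes, stood at 161 and 61.8 TMM-scaled CPM in control 1, at 122 and 52.4 in control 2, at 70.8 and 22 in the KO and at 68.6 and 25.3 in the cKO, a log2 fold change of 1.30 ± 0.11 (adjusted p = 0.000223). Of 10 smooth muscle genes 8 were higher and 1 lower, with a median of 1.29. *Myh11*, smooth muscle myosin, stood at 42.7 and 8.90, at 51.5 and 9.98, at 49.7 and 5.99 in the KO and at 51.5 and 86.8 in the cKO, and its log2 fold change was 2.31 ± 0.15 (adjusted p = 3.48e-05) in the controls.

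The cKO differed here from the other sections in the spots outside the chosen ones. *Actg2*, an actin of visceral smooth muscle, stood there at 283 TMM-scaled CPM against 11 and 9.87 in other spots of the controls and 3.99 in the KO, and its log2 ratio was -1.07 in the cKO (95% counting interval -1.2 to -0.95). Among the 10 smooth muscle genes 1 was higher in the chosen spots of the cKO. Whether a different tissue in the section bears on this was not tested.

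Markers of further cell types were read in the same contrast. Of 11 macrophage genes 9 were higher, with a median of 0.46, and their summed level was 625 TMM-scaled CPM against 471 in control 1 and 770 against 552 in control 2, led by *Mrc1* and *C1qa*. In the KO it was 839 against 962, so that the direction turned. None of the 8 blood genes passed in either direction, with *Hbb-bs*, a haemoglobin chain, at 1114 and 773 in control 1, at 1088 and 608 in control 2, at 348 and 647 in the KO and at 586 and 238 in the cKO. Of 10 fibroblast genes 1 was higher, and the summed level was 19690 against 23058 in control 1 and 29245 against 29853 in control 2, but 24835 against 21874 in the KO and 31210 against 26741 in the cKO. Without scaling factors control 2 also turned, with 25547 against 21355. The part of these cells in the results was not tested.

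Other lists fell. Of 8 mesothelial genes 7 were lower, with a median of -1.49, as for *Msln* (mesothelin) at 19.7 and 51.6 TMM-scaled CPM in control 1, at 19.4 and 91.6 in control 2, at 26.7 and 70.1 in the KO and at 25.6 and 83.5 in the cKO, a log2 fold change of -1.83 ± 0.19 (adjusted p = 0.000529). All 8 hepatocyte genes were called lower, but this rests on control 1, where they summed to 288 against 2334. In control 2 the sums were 3.38 and 2.59 and in the KO 889 and 5473. Of 7 tendon genes 5 were lower in the controls, but 6 of 7 had a higher level in the chosen spots of the KO and 5 of 7 in those of the cKO, and without scaling factors their sum in control 2 was 1229 against 1146. All 6 slow muscle and 7 of 8 neuromuscular junction genes were lower, and since abundant transcripts lower the score that chose the spots, nothing is read from the muscle lists. Of the remaining lists, tip cell and sprouting genes had 6 of 12 higher, Schwann cell genes 2 of 6, liver sinusoid genes 1 of 6 and proliferation genes 1 of 9, with none lower. No cartilage gene of 5 passed, and 2 of 3 adipocyte, 2 of 9 skeletal muscle, 3 of 5 fast muscle and 4 of 4 myotendinous junction genes were lower.

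Among the more abundant genes outside the lists, the largest rises in both controls were led by *Entpd1*, which encodes the ATP-degrading surface enzyme CD39. It stood at 184 and 75.2 TMM-scaled CPM in control 1 and at 165 and 69.5 in control 2, a log2 fold change of 1.27 ± 0.16 (adjusted p = 0.00132). *Tinagl1*, a matrix protein, and *Gucy1a1*, a subunit of the nitric oxide receptor of mural cells, both rose by 1.19 (SE 0.14 and 0.10, adjusted p = 0.000884 and 0.000223). *Eln*, the elastin of artery walls and other elastic tissue, stood at 1374 and 785 in control 1 and at 4511 and 1761 in control 2, with 1.08 ± 0.20 (adjusted p = 0.00772). Among muscle spots alone its log2 fold change was -0.20. *Ece1*, which makes active endothelin, rose by 1.03 ± 0.11 (adjusted p = 0.000514), *Adcy4* by 0.98 ± 0.11 (adjusted p = 0.000853) and *Mfng*, which glycosylates Notch, by 0.96 ± 0.20 (adjusted p = 0.0121). The largest falls, led by *Myl6b* with -0.90 ± 0.15 (adjusted p = 0.00452), include the muscle genes *Mymx*, *Myh7b*, *Csrp3* and *Mb*.

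The contrast was then set against that of the 3 E14.5 controls, where the same rule chose 81, 84 and 68 spots. The endothelial core median was a log2 ratio of 1.52, 1.48 and 0.48 in the E14.5 sections and 0.94 and 0.93 at E18.5, so that the stages overlapped. Of 13735 genes, 2 had a larger contrast at E18.5 (0.0146%) and none a smaller one by edgeR's quasi-likelihood test, with 625 and 1186 at an unadjusted p under 0.05 in each direction, and DESeq2 called 21. Both are in the vascular lists.

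*Gja5* stood at 69.1 TMM-scaled CPM in endothelium-rich and 47.5 in other spots of E14.5 control 1, at 54.1 and 45.3 in control 2 and at 49.6 and 50.3 in control 3. Its log2 ratios were 0.54, 0.26 and -0.01 at E14.5 and 2.65 and 2.52 at E18.5, and the difference was 2.27 ± 0.15 (adjusted p = 0.000174). Between the stages the level in other spots was lower at E18.5 in both controls, while the chosen spots of control 1 were higher. *Tagln*, a smooth muscle actin-binding protein, stood at 114 and 166, at 133 and 161 and at 127 and 148 at E14.5, and at 208 and 97.1 and at 310 and 119 at E18.5. Its log2 ratios were below 0 in the 3 E14.5 sections and 1.1 and 1.38 at E18.5, a difference of 1.55 ± 0.13 (adjusted p = 0.00111). Among muscle spots alone it was 0.88.

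**Figure D4:**
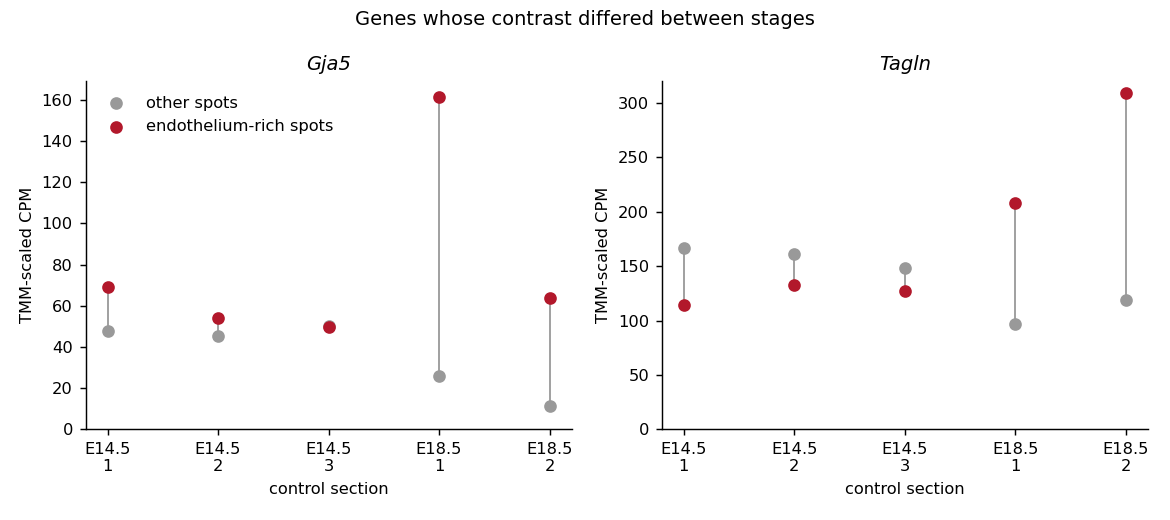
TMM-scaled CPM of *Gja5* and *Tagln* in endothelium-rich (red) and other spots (grey) of each control section, with 1 pair of points per section and a line between them. The red and grey points of *Gja5* lie close together at E14.5 and apart at E18.5, and those of *Tagln* change order.

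The smooth muscle list as a whole had median log2 ratios of -0.57, -0.26 and -0.18 in the E14.5 sections and 1.28 and 1.31 at E18.5, and 1 of its 10 genes passed the test of the difference. For the arterial list the medians were 1.02, 0.63 and 0.29 at E14.5 and 1.28 and 1.16 at E18.5, with 1 of 13 passing. Venous medians were 0.77, -0.04 and 0.14 at E14.5 and 0.78 and 0.99 at E18.5, and none of 6 passed. The stages did not overlap in these 3 lists, by 0.77 against 0.78 in the venous list, but this was not particular to vessels. Of 30 lists 10 did not overlap, 8 higher at E18.5, among them the Notch list and those of macrophages (-0.11, -0.23 and -0.01 against 0.45 and 0.56) and Schwann cells, and 2 lower. With 2 sections against 3, values can separate without a difference between the stages, so that nothing is read from the lack of overlap. The lists themselves were not tested.

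Endothelium-rich spots in muscle were finally compared with those outside it, 296 with 50 spots in control 1 and 166 with 86 in control 2. In the same kind of fit, 2359 of 11261 genes were higher in muscle (20.9%) and 1758 lower (15.6%), the 9 muscle and 5 rule genes left out. Without scaling factors the counts were 1129 and 5612, and when the sums were scaled to the 5 rule genes 1380 and 3832 of 11547, which moved the median gene from -0.0048 to -0.56 and -0.37. Of 149 vascular genes tested 65 were called, 21 higher and 44 lower in muscle. Both of these scalings move all genes down alike, so that lower calls can hardly be lost under them and nothing is read from their number. Calls of the 21 higher genes numbered 11 relative to the rule genes and 8 without scaling factors, which follows from the same shift, and whether a gene was higher in muscle depends on the scaling for the rest.

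Of 11 capillary and lipid uptake genes tested 6 were higher in muscle and none lower. *Cd36* stood at 558 TMM-scaled CPM in muscle and 262 outside in control 1, at 606 and 206 in control 2, at 416 and 232 in the KO and at 349 and 161 in the cKO, a log2 difference of 1.33 ± 0.16 (edgeR, adjusted p = 4.63e-07). *Lpl* differed by 1.39 ± 0.15 (adjusted p = 1.26e-07), *Rgcc* by 1.18 ± 0.16 (adjusted p = 2.71e-06), *Fabp4* by 0.82 ± 0.17 (adjusted p = 0.000493) and *Gpihbp1*, which anchors lipoprotein lipase on capillary endothelium, by 0.73 ± 0.14 (adjusted p = 0.000274). Scaled to the rule genes, the difference of *Gpihbp1* was 0.37 (adjusted p = 0.057), and it lost its call. Without scaling factors *Fabp4* also lost its call, at 0.27 (adjusted p = 0.148). On those scales 4 genes of the list were higher and 2 lower, and 3 higher and 4 lower. The median of the 11 genes of this list was 0.47, then 0.12 relative to the rule genes, and -0.09 without scaling factors, so that its direction depends on the scaling.

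Since spots in muscle hold muscle fibres, these genes were also read between endothelium-rich and other spots within muscle. *Fabp4* was higher there by a log2 fold change of 0.75, *Gpihbp1* by 0.52 and *Adgrl4*, an adhesion receptor of endothelium, by 0.77, although its higher level in muscle was not called without scaling factors (adjusted p = 0.084). *Cd36* had 0.18 (adjusted p = 0.066), *Rgcc* -0.15 (adjusted p = 0.115), and *Lpl*, *Mef2c* and *Vegfb* were lower, by -0.21, -0.34 and -0.21. In this fit 981 of 13356 genes were higher in endothelium-rich spots (7.35%) and 1732 lower (13%). Of the 21 genes higher in muscle, 10 were also higher in endothelium-rich than in other muscle spots and 7 lower. Of the 44 lower in muscle, 32 were higher in endothelium-rich muscle spots and none lower. Over all 65 called genes these counts were 42 and 7. The lists hold genes of vessels, and the share over all 149 vascular genes is not given here. Nothing about place is therefore read from these counts.

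Of 5 venous genes tested 4 were lower in muscle, as were 6 of the 26 endothelial core genes, with 2 higher, and 5 of 12 tip cell and sprouting genes. These core counts depend on the scaling, with 13 lower and 1 higher relative to the rule genes and 22 lower and none higher without scaling factors. The venous count was 4 on both scales, but lower calls can hardly be lost under them, so that nothing is read from it. *Vwf* stood at 94.0 and 364 TMM-scaled CPM in muscle and outside in control 1, at 66.4 and 350 in control 2, at 73.6 and 304 in the KO and at 72.2 and 376 in the cKO, a log2 difference of -2.17 ± 0.16 (adjusted p = 7.63e-10). Each section outside muscle was above each in muscle. *Plvap*, a protein of fenestrated and venous endothelium, differed by -1.22 ± 0.17 (adjusted p = 4.01e-06), *Nr2f2* by -1.17 ± 0.22 (adjusted p = 0.000144), *Angpt2* by -1.41 ± 0.20 (adjusted p = 4.31e-06), and *Ackr3*, a scavenging chemokine receptor, by -2.35 ± 0.23 (adjusted p = 1.93e-08). *Tagln* differed by -1.72 ± 0.16 (adjusted p = 1.39e-08) and *Myh11* by -1.67 ± 0.20 (adjusted p = 3.42e-07), and 8 of 10 smooth muscle genes were lower. The other 2, *Synpo2* with 1.92 ± 0.17 (adjusted p = 4.98e-09) and *Smtn* with 0.99 ± 0.16 (adjusted p = 1.79e-05), were higher. Of 13 arterial genes 5 were lower, among them *Jag1* with -0.80 ± 0.16 (adjusted p = 0.000351), and 8 were not called, among them *Gja5* with 0.07 ± 0.29 (adjusted p = 0.885). Relative to the rule genes 7 of the 13 were lower and without scaling factors 9, with none higher.

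**Figure D5:**
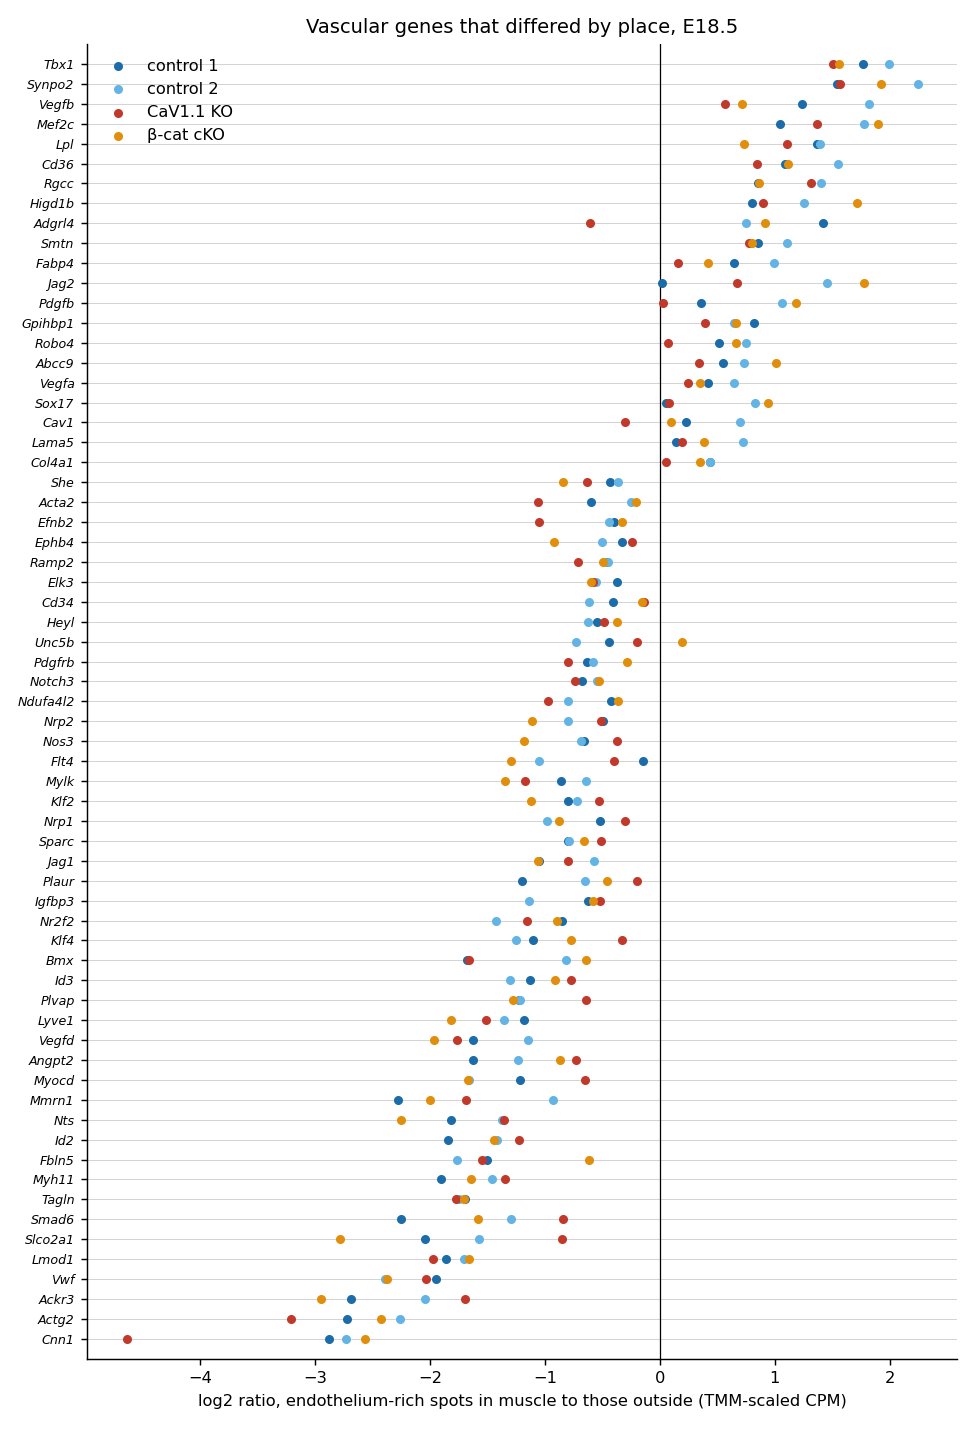
Log2 ratio of TMM-scaled CPM in endothelium-rich spots in muscle to those outside muscle, for the 65 vascular genes that were called, with 1 point per section at E18.5. *Cd36*, *Lpl* and *Mef2c* lie to the right of 0 in all 4 sections, and *Vwf*, *Actg2* and *Tagln* to the left, whereas *Adgrl4* and *Cav1* lie on the left in the KO and *Unc5b* on the right in the cKO, against the other sections.

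Muscle genes such as *Myoz3* led the rises outside the lists, which the split of the spots by muscle genes fixes. *Eln* led the falls, at 545 TMM-scaled CPM in muscle and 6425 outside in control 1 and at 969 and 11670 in control 2, with -3.57 ± 0.19 (adjusted p = 6.79e-12), before *Id4*, *Prss35*, *Slit3*, *Gdf10* and *Dkk3*. Spots outside muscle held more connective tissue: 9 of 10 fibroblast genes and all 10 macrophage genes tested were lower in muscle, and the fibroblast list summed to 17293 in muscle and 42774 outside in control 1 and to 22101 and 50333 in control 2. The split by muscle genes puts spots richer in other cells outside muscle, so that it favours these falls, that of *Eln* included, in advance. The part of fibroblasts and macrophages in the values above was not tested.

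Spots in patches of 5 or more were set against spots that stood alone. They were 130 and 106 in control 1, 103 and 80 in control 2, 68 and 40 in the KO and 134 and 37 in the cKO. Arterial genes summed to 1231 CPM in patches and 826 in spots alone in control 1, and to 1501 and 770 in control 2, ratios of 1.49 and 1.95. The ratio was 1.66 in the KO and 1.14 in the cKO. In control 2 only 35.9% of patch spots lay in muscle, against 87.5% of spots alone, but among muscle spots the arterial ratio was still 1.68, and it was 1.40 in control 1, 1.61 in the KO and 1.098 in the cKO. The capillary list had ratios of 1.13, 1.04, 1.12 and 1.25 over all spots in controls 1 and 2, the KO and the cKO, and the endothelial core list 1.22, 1.61, 1.61 and 1.48. Over all spots, lists of other cell types moved as much. In control 1 the ratio was 1.62 for blood and 1.69 for Schwann cell genes. In control 2 it was 2.07 for macrophage, 2.17 for fibroblast and 9.12 for cartilage genes, and in the cKO 1.56 for blood genes. Among muscle spots the 3 ratios of control 2 were 1.203, 1.13 and 0.931, below the arterial 1.68. Blood genes had 1.56 there, and neuromuscular junction genes had 1.77, above the arterial ratio. In muscle spots of the KO, Schwann cell (2.08), cartilage (2.04) and proliferation genes (1.76) lay above the arterial 1.61. In muscle spots of control 1 the blood and Schwann cell ratios were still 1.501 and 1.59, and in those of the cKO the blood ratio was 2.02. The part of other cell types in the arterial ratio was not tested. Patches were formed from the chosen spots, and these ratios were not tested.

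The mutants gave values only. In endothelium-rich spots the endothelial core list summed to 3364 and 3307 TMM-scaled CPM in the controls, 3214 in the KO and 2649 in the cKO, and in other spots to 1815 and 1791, 1118 and 1169. Without scaling factors the sums in chosen spots were 2703 and 2889 in the controls, 3622 in the KO and 2602 in the cKO, and in other spots 1265 and 1281, 1168 and 1030. The KO thus lay below both controls in chosen spots with the scaling and above both without it. The arterial list summed to 1314 and 1234 in the chosen spots of the controls, to 1278 in the KO and to 763 in the cKO, and without scaling factors to 1055 and 1078, 1441 and 749. Genotype and section cannot be told apart with 1 section per mutant, and the mutant sections had smaller shares of muscle spots.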

How the data were processed

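Per the labels and the study's methods, the authors cut 5 µm sections, ran the 10x Visium FFPE probe kit and made counts of UMIs per gene and spot with Space Ranger on mm10. Per the file headers this was version 2.0.0 for E14.5 controls 1 and 2 and 2.0.1 for the other controls and the E18.5 mutants, and the stage comparison crosses these versions. The deposited counts are not normalized. A deposited score per gene, Moran's I over the section, was read but is not given here. The deposited spot positions gave adjacency.

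Spots with at least 1000 UMIs were kept. Muscle spots lie above Otsu's threshold of 9 log-normalized muscle genes. Sums per section and region were tested with edgeR 4.0.16 on 5 control sections with 3 residual degrees of freedom. The settings were filterByExpr, TMM, quasi-likelihood, section as block, Benjamini-Hochberg and a threshold of 0.05. The sections share spot barcodes because slides share a layout. Errors are standard errors. Counting intervals and 95% Clopper-Pearson intervals cover counting error only. Whether the controls share a litter is not given, and p-values measure the spread between these sections.

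The members, the 31 gene lists and the tests were chosen with earlier results of these data known. Genes to name were picked by rule, and not all of the picked genes are printed. Per list they were up to 4 called with the largest change and the most abundant. Outside lists they were the 12 largest rises and 8 largest falls among genes averaging 5 or more in log2 CPM. All ligands and receptors of 3 pathways and all called vascular genes by place were also picked. *Clec14a*, *Erg*, *Fli1*, *Cd34*, *Calcrl*, *Prox1*, *Mrc1* and the BMP ligands, and for endothelium-rich against other spots *Fabp4*, *Cd36*, *Lpl*, *Rgcc*, *Lyve1* and *She*, were named after their values were seen, as were *Gja5* by place and the targets *Cacna1s* and *Ctnnb1*.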

Additional observations from a re-analysis of the deposited data

Results flagged for a closer look

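The contrast of endothelium-rich with other spots differed between the stages for *Gja5*, by 2.27 on the log2 scale, and for *Tagln*, by 1.55, by the edgeR test of the difference itself. For both genes the ratio was higher in both E18.5 controls than in each of the 3 E14.5 controls. Both were picked by the test of this same difference, so that the separation is no further support for them. *Gja5* was still called under 17 of 18 alternatives, all but the fit without the section block (adjusted p = 0.816), and DESeq2 gave it no adjusted p. *Tagln* was still called under 13 of 19. It lost its call for the top 20% of spots (adjusted p = 0.589), within UMI deciles (0.412) and chosen without *Cdh5* (0.137). The same happened with the mutants (0.115), without E18.5 control 2 and without the block (0.454). In the same order the log2 difference of *Tagln* was 1.495, 1.548, 1.917, 1.384, 1.42 and 1.559, against 1.547 in the main fit. The E14.5 sections held 68 to 84 chosen spots each. The median chosen spot carried 10, 45 and 12 UMIs of the 5 rule genes there, against 29 and 32 in the E18.5 controls. In E14.5 control 1 chosen spots had a median of 8911 UMIs against 20022.5 in other spots, and 39.5% of them lay in muscle. The part of these differences in the stage contrast was not tested. E14.5 control 3, which was processed with the same Space Ranger version as the E18.5 controls, had log2 ratios of -0.01 for *Gja5* and -0.22 for *Tagln*.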

How the results depend on the processing

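Counts of genes moved more than their fold changes. Higher and lower calls in endothelium-rich spots were 1668 and 2250 for the top 5% of spots, 33 and 11 for the top 20%, 133 and 31 within UMI deciles, 152 and 36 chosen without *Cdh5*, 526 and 423 with adjacent spots left out, 505 and 538 with DESeq2, 931 and 2541 without a filter, 2170 and 2035 with the E18.5 controls alone, 1405 and 2385 with the mutants, and 2709 and 219 without scaling factors, an alternative chosen after seeing the data. Leaving out 1 control gave 7 to 1684 higher and 3 to 2101 lower. Without the section block, which pairs the 2 sums of a section, 63 and 5 were called. The 2 sums of a section deviated together (correlations 0.339 to 0.622), and replicate numbers shared by the stages pair no embryos. The stage difference, 2 genes, became 688 (top 5%), 1 (top 20%, UMI deciles, and without *Cdh5*), 84 (without *Kdr*), 117 (muscle spots), 21 (DESeq2), 244 (no filter), 15 (with mutants), 75 (no scaling factors), 0 without the replicate block, and 1 to 528 leaving out a control. Calls by place, 4117, became 2068 with DESeq2, 6741 without scaling factors, and 1752 to 4559 leaving out a control, and 3540 without the block. Of 122 named genes called in endothelium-rich spots, 17 were still called for the top 20%, 20 without the block, 7 without E18.5 control 1 and 30 without E18.5 control 2, 43 within UMI deciles, 42 without *Cdh5*, and 92 or more under each other alternative run. Signs turned for *Tnmd* with mutants (0.0883), *Eln* among muscle spots (-0.20), and by place without scaling factors for *Sox17* (-0.0777), *Lama5* (-0.0958), *Cav1* (-0.0853), *Col4a1* (-0.12) and *Vegfa* (-0.00754), and for *Jag2* by place, which ran from -0.00393 without E18.5 control 2 to 1.395 without E18.5 control 1. The share of adjacent endothelium-rich spots was 19.1%, 26.3%, 15.97% and 24.7% for the top 5% in controls 1 and 2, the KO and the cKO, 31.6%, 36.5% and 38.1% for the top 20% in controls 1 and 2 and the KO, and within UMI deciles 23.5% in the KO and 31.3% in the cKO, and 23.1% and 30.4% without *Cdh5*. Of 77 named genes called by place, 50 were still called with DESeq2, 61 without the block and 63 within UMI deciles, and fewest without E18.5 control 2. The causes were not tested. Among the E18.5 sections, the KO held the fewest UMIs in endothelium-rich and in other spots, which limits its low genes most in that contrast.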
